A study of Mus musculus with 4 samples.

Results

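The proximal Trav stretch of the murine Tcra/Tcrd locus, which encodes the alpha and delta chains of the T cell receptor, was taken here as the 0.86 Mb of chromosome 14 from 53.8 to 54.66 Mb (build mm9) that ends just before 4 measured anchor points. Its members are the HindIII fragments with their midpoint in that interval that received a read in at least 1 of 16 chromosome conformation libraries. They number 271 of the 26314 fragments listed on chromosome 14 and of the 506753 listed on all chromosomes. Their contacts were measured by 4C-seq, in which crosslinked chromatin is cut and religated and inverse PCR from 1 fragment, called the viewpoint, reports which fragments were joined to it.

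The study compared CD4- CD8- thymocytes, called DN here, with naive B cells of the spleen, called B. The DN cells were thymocytes of Rag2-/- C57BL/6 mice aged 3 weeks, taken from litters, and the B cells came from wild type C57BL/6 mice of an age the labels do not give. There were 2 samples of each cell type, and TEA, INT1, INT2 and Ed served as viewpoints in each, so the 16 libraries come from 4 samples and the viewpoints are not independent replicates. The labels describe the preparation of the B cells in the words used for thymocytes, and 4C reads hold no expression markers, so both cell types rest on the labels. Genotype, tissue and sequencing folder differ together with cell type and cannot be told apart from it. Nothing in the labels ties the 2 samples of a cell type to separate litters or animals, so p-values measure the spread between these samples.

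The locus assembles its receptor genes by joining a V segment to D and J segments, and the V segments must be brought across a long interval to do so. The Trav segments and most Trdv segments are spread over the region upstream of the viewpoints. Contraction of the locus and loops between CTCF-bound sites are known features of it in developing T cells. RAG2 is a subunit of the recombinase, and cells without it keep the locus unrearranged. TEA is a germline promoter at the start of the Jα array, Ed is the Tcrd enhancer, and INT1 and INT2 are intergenic elements between the V segments and the Dδ segments. In the RefSeq gene order of a later assembly (GRCm38.p6), the V segments met first when moving away from Trdd1, the first Dδ segment, are Trdv4, Trdv3, Trav23, Trdv2-2, Trdv2-1, Trav22 and Trdv1, among 130 Trav and 5 Trdv genes on that side. No annotation of build mm9 was used, so windows and fragments carry no gene names.

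The members covered 852965 of the 860000 bp of the stretch. Their median length was 2376 bp, with a range of 16 to 28956 bp. A gap of 6 bp, the length of the HindIII site, preceded 263 of the 271, which means that nearly every fragment of the stretch was captured at least once. The longest stretch with no listed fragment was chr14:54404524-54407374, with 2851 bp. The INT1 viewpoint fragment (chr14:54677060-54677623) lies 17.3 kb beyond the border of the stretch, INT2 (chr14:54680988-54683873) 22.4 kb, Ed (chr14:54763263-54765182) 104 kb and TEA (chr14:54769627-54773311) 111 kb.

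Values are given as a percent of the chromosome 14 reads of a library outside the viewpoint fragment and the fragment on each side of it. These totals lay between 169129 reads (Ed, DN replicate 1) and 2851909 reads (TEA, DN replicate 2). A count of 0 allows up to 3 reads, which is between 0.000105% and 0.00177% of these totals, and covers counting error only, since PCR copies were not marked. The density of reads on other chromosomes, carried over to chromosome 14, accounted for 11.7% to 27.2% of the chromosome 14 reads in DN libraries and for 48.2% to 64.6% in B libraries. How the size of the contrast changes with the library size is given after the shares.

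From each viewpoint the stretch held a larger share of the chromosome 14 reads in DN than in B, and INT1 gave the largest share in DN. From INT1 it held 19.4% and 25.8% in DN and 2.95% and 3.98% in B. The DN mean of 22.6% ± 4.51 (SD, n = 2) was 6.52 times the B mean of 3.46% ± 0.732. The fragment chr14:54677630-54680981 separates the viewpoint fragments of INT1 and INT2. From INT2 the values were 12.7% and 18.6% in DN and 2.88% and 3.22% in B. The ratio of the means was 5.13 for INT2.

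The viewpoints farther downstream gave smaller mean shares in DN, although the DN values of TEA overlapped those of INT2. The shares did not follow distance, since TEA lies farther than Ed and gave the larger share. Without 10 kb around the viewpoint, the DN mean was 17.9% from TEA and 17.0% from INT2. From TEA the stretch held 11.4% and 18.4% in DN against 3.40% and 4.39% in B, a ratio of 3.82. From Ed it held 6.28% and 11.3% in DN against 1.88% and 3.12% in B, a ratio of 3.53. DN replicate 2 was the higher DN sample from all 4 viewpoints, and neither DN sample overlapped the B samples from any of them. The exact two-sided permutation test gave p = 0.333 for each viewpoint, the smallest value that 2 against 2 samples allow, so this design cannot reach 0.05.

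The size of the contrast depended on what the reads were divided by. As a share of the reads within 1 Mb of the viewpoint, the stretch held 30.7% and 33.8% from INT1 in DN and 7.31% and 10.1% in B. From INT2 these shares were 19.9% and 24.9% in DN and 11.2% and 12.1% in B, and from Ed 9.82% and 17.9% against 5.12% and 7.63%. From TEA they were 18.1% and 23.8% in DN and 15.6% and 19.0% in B, so that the cell types overlapped. The ratio of DN to B means within 1 Mb was therefore 3.71 for INT1, 1.92 for INT2, 2.17 for Ed and 1.21 for TEA. Divided by the reads on all chromosomes, the ratios were 17.2, 13.9, 7.82 and 12.9 in the same order. Divided by the chromosome 14 reads that remain after the density of the other chromosomes is subtracted, they were 4.06, 2.63, 2.22 and 1.70. With each captured fragment counted once, as a share of the captured fragments of chromosome 14, they were 2.23, 3.22, 3.31 and 2.28.

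**Figure D1:**
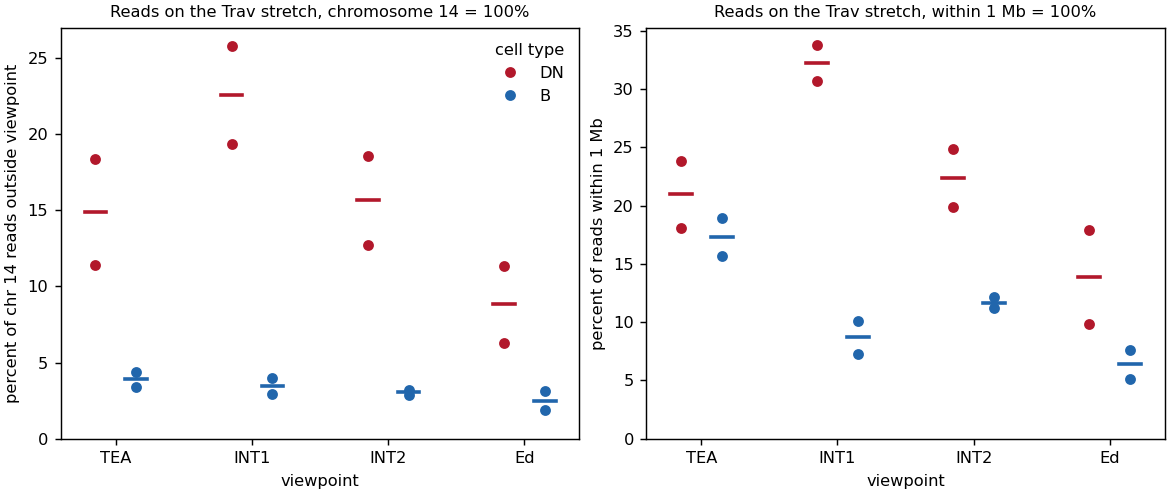
Share of 4C reads on the 271 fragments of the Trav stretch, by viewpoint (x axis), as a percent of chromosome 14 reads outside the viewpoint (left y axis) and of reads within 1 Mb of it (right y axis). Each point is 1 library and each bar the mean of 2; DN lies above B from all 4 viewpoints on the left, from 11.4% or more against 4.39% or less for TEA, while on the right the TEA libraries overlap.

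Most members were captured in DN and fewer in B. From INT1, 231 and 236 of the 271 fragments had a read in the DN libraries, against 137 and 129 in the B libraries. From TEA the counts were 211 and 229 in DN against 134 and 143 in B. From INT2 they were 177 and 220 against 99 and 114, and from Ed 115 and 165 against 52 and 64. As shares, these are means of 86.2%, 81.2%, 73.2% and 51.7% in DN and of 49.1%, 51.1%, 39.3% and 21.4% in B for INT1, TEA, INT2 and Ed. Neither cell type overlapped the other from any viewpoint (exact permutation p = 0.333, the smallest possible). Over all fragments within 1 Mb of the viewpoint, members included, the mean shares were 87.1%, 78.5%, 73.5% and 47.1% in DN and 63.3%, 58.9%, 54.9% and 26.0% in B in the same order. The members' shares in DN were thus close to those of all fragments nearby, and their shares in B were lower than those of all fragments nearby.

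The contrast was also present at equal chromosome 14 totals, at which the stretch itself still held more reads in DN. After each library was thinned to the smallest chromosome 14 total of its viewpoint, the mean shares were 85.1% in DN and 49.0% in B from INT1, 79.7% and 48.1% from TEA, 71.9% and 37.4% from INT2, and 45.8% and 19.1% from Ed. The DN and B fragments were not an exclusive pair of sets. Of the 271 members, 75 were captured in all 8 DN libraries and 12 in all 8 B libraries, and 10 were captured in all 16. Shares of such patterns over all fragments nearby are not given here, so these counts are not shown to be particular to the stretch. No member was missed by every DN library, while 34 had no read in any B library, and these were short, with a median of 480 bp. A fragment with no read in any of the 16 libraries is not a member, so these 34 became members through DN reads only. This contrast thus depends in part on the membership rule and is not a separate measure of a difference between cell types.

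Counted by viewpoint, 56 members (20.7%) were captured in both DN libraries and in neither B library from INT1, against 12.6% of all fragments within 1 Mb of it. From INT2 there were 49 (18.1%, against 10.1%), from TEA 43 (15.9%, against 10.8%) and from Ed 36 (13.3%, against 8.97%). The opposite pattern was found for 1 member from INT1 (0.84% of all fragments within 1 Mb), 1 from INT2 (2.52%) and 0 from TEA (0.853%) and Ed (0.677%). The 34 members with no B read could add to the first pattern but not to the opposite one. These counts thus also depend in part on the membership rule, by which all fragments nearby were listed too.

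Only 2 members were captured in all 8 DN libraries and in no B library. At chr14:53887241-53891314, in the far end of the stretch, the DN libraries held 67 and 168 reads from TEA, 230 and 444 from INT1, 19 and 442 from INT2, and 225 and 382 from Ed. At chr14:54344531-54346676 they held 61 and 428 reads from TEA, 142 and 549 from INT1 and 48 and 513 from INT2, but 1 read each from Ed. These fragments measure 4074 and 2146 bp and were singled out by this pattern.

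Capture rose with fragment length up to 8 kb. Averaged over 8 libraries, fragments of up to 500 bp (37 members) were captured in 42.6% of cases in DN and 12.2% in B. Fragments of 2 to 4 kb (88 members) reached 79.8% and 47.7%, and those of 4 to 8 kb (54 members) 83.1% and 53.0%. For the 17 members over 8 kb the shares were 72.8% and 51.5%. DN exceeded B in each of the 6 length classes. In the DN libraries the shortest class reached 67.6% and 78.4% from INT1, 48.6% and 64.9% from INT2, 18.9% and 35.1% from TEA and 5.41% and 21.6% from Ed.

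**Figure D2:**
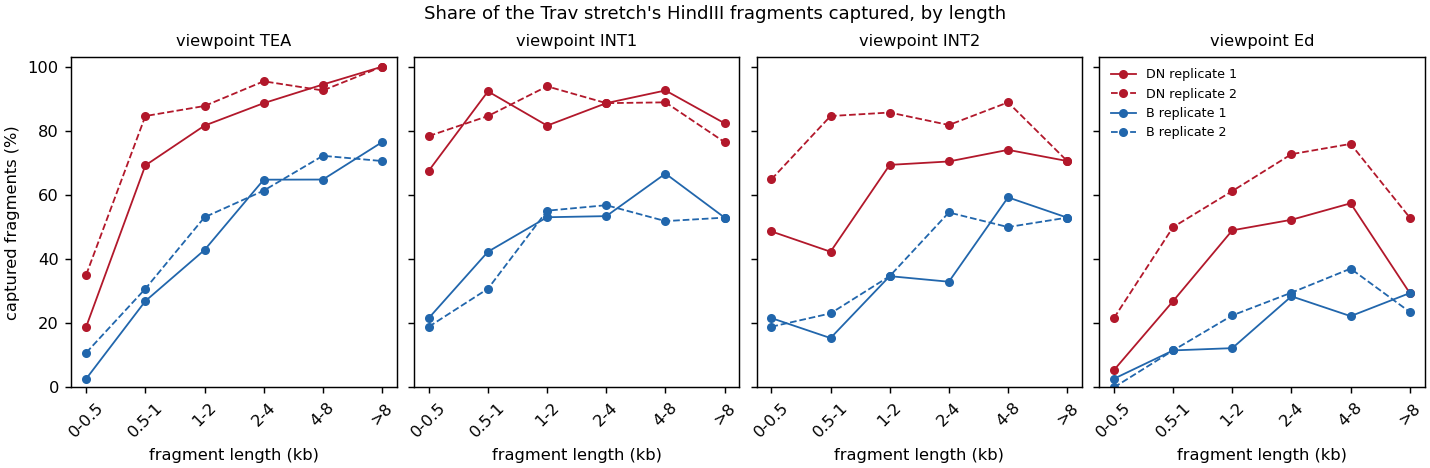
Share of the members that received a read (y axis, percent) by fragment length class (x axis, kb), with 1 panel per viewpoint and 1 line per library; solid and dashed lines are replicates 1 and 2. In each panel the DN lines lie above or, for the longest fragments from Ed, level with the B lines, and the shortest class is the least often captured in most libraries.

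A few long fragments were nearly empty in every library, which a reader of the profile will meet as sharp drops. Of the 159 members of at least 2 kb, 4 had fewer than 10 reads in each of the 16 libraries. The longest was chr14:54551091-54560857, with 9767 bp and 8 reads in all, found in 3 libraries of TEA. Its neighbour chr14:54560864-54562884 had 6 reads in all, and chr14:54030795-54036824 and chr14:54171209-54173712 had 7 and 2. These were noticed after the values were seen, and the uniqueness of their sequence was not tested.

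The number of reads fell with distance in both cell types, but not smoothly. The slope of log10 window value on log10 distance over 84 windows of 10 kb was -1.17 and -1.23 from INT1 in DN and -1.07 and -1.49 in B. From TEA it was -1.44 and -1.34 in DN and -1.69 and -1.42 in B. From INT2 it was -1.54 and -1.32 against -1.18 and -1.22, and from Ed -1.75 and -2.19 against -1.24 and -2.34. Both DN samples decayed more steeply than both B samples from INT2 (exact permutation p = 0.333, the smallest possible), while the samples of the cell types overlapped from TEA, INT1 and Ed. The sign of the difference turned in 20 kb windows for TEA, INT1 and Ed.

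**Figure D3:**
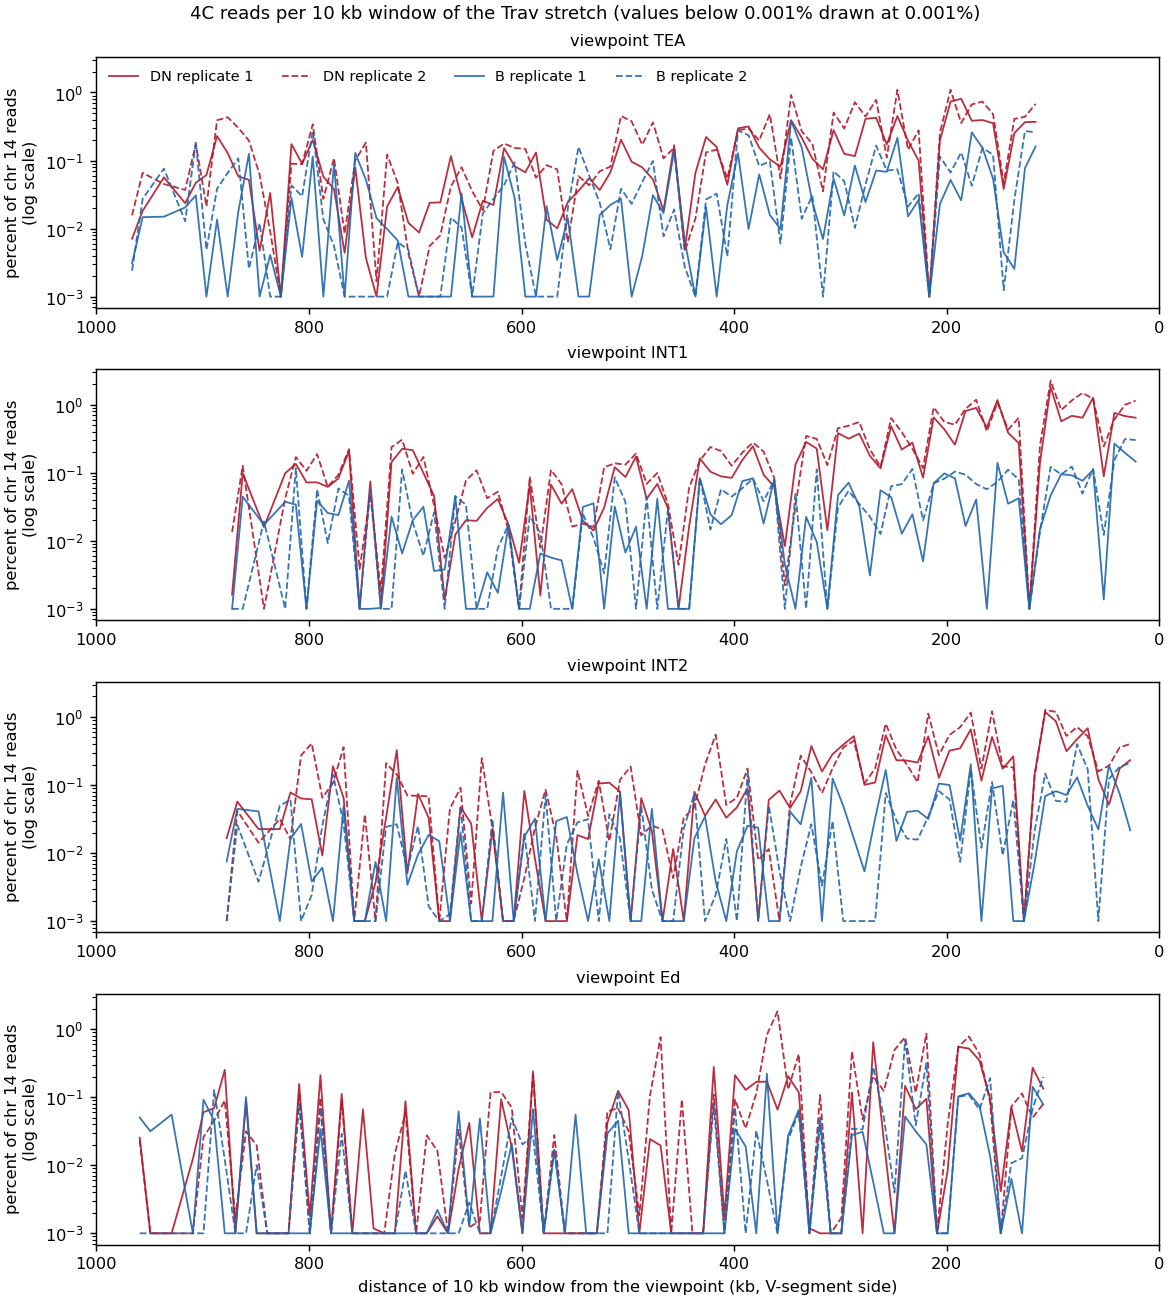
Percent of chromosome 14 reads (log y axis) in each 10 kb window of the stretch against distance from the viewpoint in kb (x axis, near end at the right), 1 line per library. The DN lines run above the B lines over most of the stretch, most regularly from INT1 between 0 and 300 kb, and all 16 lines drop where the 9767 bp fragment with next to no reads lies.

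In 100 kb bands, the near end of the stretch held the most reads and DN exceeded B at nearly all distances. Both DN libraries were above both B libraries in 9 of 9 bands from INT1, TEA and INT2 and in 7 of 9 from Ed. From INT1 the ratio of DN to B means was smallest in the band from 54 to 54.1 Mb (2.89) and largest in the band from 54.5 to 54.6 Mb (11.7). In that band the DN libraries held 6.42% and 8.24% of the chromosome 14 reads and the B libraries 0.506% and 0.744%. From INT2 the same band held 4.23% and 6.04% in DN and 0.617% and 0.646% in B, a ratio of 8.13. From TEA it held 3.47% and 4.78% against 0.757% and 0.721%, a ratio of 5.58, and from Ed 1.76% and 4.16% against 0.396% and 1.38%, a ratio of 3.33. The 3 largest of these ratios were each the highest among the 9 bands of their viewpoint, while the highest from Ed was 23.6, in the nearly empty B values of the band from 54 to 54.1 Mb.

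In DN, the 60 kb nearest to the viewpoints held different levels relative to the next band from the paired intergenic viewpoints. Scaled to 100 kb, the band from 54.6 to 54.66 Mb held 6.81% and 9.52% from INT1 in DN, more than the next band. From INT2 it held 2.89% and 3.90% in DN, less than the next band in both libraries, although INT2 lies only a few kilobases farther away. It was also below the next band in both DN libraries from TEA (2.96% and 4.65%) and from Ed (0.983% and 0.670%). On the log2 scale, INT1 exceeded INT2 in this band by 1.24 and 1.29 in the DN samples and by 0.70 and -0.20 in the B samples. The DN and B samples did not overlap in this ratio here, nor in 2 other bands, so in 3 of 9 bands, and TEA over Ed did not overlap in 1 of 9, the same nearest band. With 2 against 2 samples and no difference, a lack of overlap has a probability of 0.333 (exact permutation). These counts are no larger than that share, so they do not show a difference between cell types. In the model over 16 libraries given below, each window of this band had an adjusted p of 0.993 for INT1 against INT2 (limma). The contrast was singled out after its values were seen.

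A band low in reads lay 560 to 660 kb from the near border. The band from 54 to 54.1 Mb (31 fragments) held less than the farther band from 53.9 to 54 Mb (32 fragments) in 16 of 16 libraries, and it was the lowest of the 9 bands in 8 of 8 DN and in 14 of 16 libraries overall. From INT1 the low band held 0.215% and 0.416% in DN and 0.0778% and 0.140% in B, where the farther band held 1.10% and 1.21% in DN and 0.186% and 0.324% in B. The farther band exceeded it by 2.44 to 5.11 times in the DN libraries and by 1.32 to 61.0 times in the B libraries. Median fragment lengths were alike, 2519 bp in the low band and 2479 bp in the farther one. Fewer fragments were captured in the low band in 13 of 16 libraries. The band was picked out after the values were seen, and the uniqueness of its sequence was not tested.

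**Figure D4:**
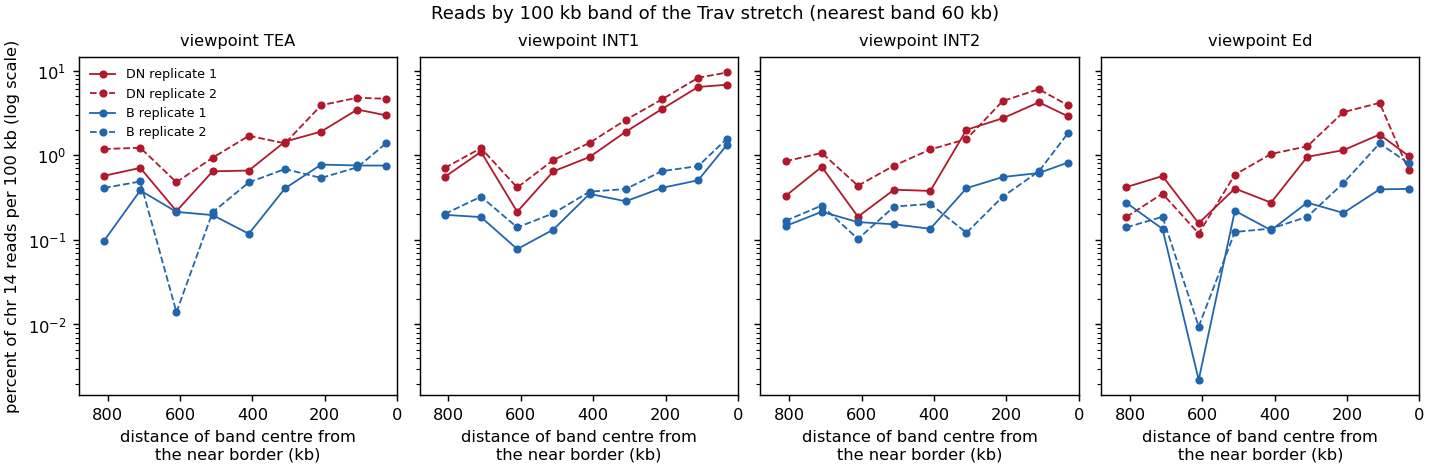
Percent of chromosome 14 reads per 100 kb (log y axis) in 9 bands of the stretch against the distance of the band centre from the near border in kb (x axis), 1 panel per viewpoint, 1 line per library. All 16 libraries hold less in the band centred at 610 kb than in the next farther band, and the nearest band lies above its neighbour in both DN libraries from INT1 only.

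The difference between cell types was then tested window by window with limma on log2 values (pseudocount 1), over all 10 kb windows within 1 Mb of a viewpoint and with Benjamini-Hochberg adjustment. From INT1, 33 of the 82 tested windows of the stretch were higher in DN at an adjusted p under 0.05, against 24.9% of all windows tested, and 0 were lower. From INT2 it was 4 of 81, near the 4.19% of all windows, from TEA 1 of 81 (2.62% of all windows) and from Ed 0 of 58 (0% of all windows), with 7 at an unadjusted p under 0.05 and 0 with edgeR. The shares called from INT2 (4.94%) and TEA (1.23%) were thus near or below that of all windows. Leaving out a sample leaves 1 library in its group, which was then assumed to vary like the other group. Shares over all windows are not given for those fits. Without any 1 of the 4 samples, TEA and INT2 had 0 windows called as higher. From INT1 10 remained without DN replicate 1, 8 without DN replicate 2, 24 without B replicate 1 and 39 without B replicate 2, and from Ed 6 and 5 were called without DN replicate 1 and without DN replicate 2.

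The median change of the tested windows of the stretch was 3.21 on the log2 scale from INT1, against 1.53 over all tested windows. It was 2.97 against 1.22 from INT2, 2.67 against 1.50 from TEA and 2.78 against 1.60 from Ed. Values of both DN libraries exceeded both B values in 68 of 82 windows from INT1 (60.1% of all windows), 60 of 81 from TEA (55%), 46 of 81 from INT2 (43.5%) and 29 of 58 from Ed (37.4%). The opposite order held in 3 windows from INT1 (16.1% of all windows), 1 from INT2 (14.7%), 0 from TEA (6.28%) and 0 from Ed (7.19%). Of the 84 windows of the stretch, 25 had both DN above both B from all 4 viewpoints, against 19% of all windows within reach of the 4 viewpoints, and 8 had this from none. The 25 came from the same 4 samples, which the viewpoints share.

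The 10 kb windows called from INT1 were concentrated at the near end. From 54.36 Mb onward 24 of the 29 tested windows were called, with 6 in the nearest 60 kb and 8 in the band before it. Before 54.3 Mb, 1 to 3 windows per 100 kb were called. In 50 kb windows, 16 of the 17 tested windows of the stretch passed from INT1, those from 53.8 to 54 Mb included. The difference was thus not confined to the near end. In 4 of the 33 windows the B libraries had no read. The other 29 had folds between 3.17 and 138, with a median of 9.97, on the log2 scale with its pseudocount. The quasi-likelihood test of edgeR on recovered reads called 29 windows of the stretch from INT1, all of them among the 33.

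The window from 54.57 to 54.58 Mb had the highest DN mean of the stretch from INT1, INT2 and TEA, and the 3rd highest from Ed. From INT1 it held 1.82% and 2.25% of the chromosome 14 reads in DN and 0.0464% and 0.122% in B. That is 26.9 times higher in DN (log2 4.75 ± 0.55 SE, adjusted p = 0.00279 in limma). From INT2 it held 1.18% and 1.27% in DN and 0.0686% and 0.147% in B, a 12.2-fold difference (limma, adjusted p = 0.0317). From TEA it held 0.735% and 1.10% against 0.0518% and 0.0667%, a 15.2-fold difference (limma, adjusted p = 0.0321), and this was the only window of the stretch called from TEA. From Ed it held 0.550% and 0.545% against 0.103% and 0.101%, which is 5.36-fold and did not pass (limma, adjusted p = 0.284).

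A pair of adjoining fragments held much of that peak. From INT1, chr14:54574479-54576656 held 0.809% and 0.761% in DN and 0.0421% and 0.0699% in B, the highest DN mean of any member from that viewpoint. From INT2 the same fragment held 0.499% and 0.351% in DN, with no read in B replicate 1 and 0.0311% in B replicate 2. From TEA, chr14:54576663-54578666 held 0.304% and 0.608% in DN and 0.0208% and 0.00827% in B. From Ed the DN libraries held 327 and 748 reads on the first of these fragments, and the B libraries 2 and 0.

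Among the other called windows, the strongest from INT1 by adjusted p were 54.5 to 54.51 Mb and 54.61 to 54.62 Mb. The first held 0.898% and 1.18% in DN and 0.0405% and 0.0683% in B (19.6-fold; limma, adjusted p = 0.00279). The second held 1.27% and 1.22% in DN and 0.110% and 0.114% in B (11.1-fold, the same adjusted p). Its replicates differed little in either cell type. A further 7 windows completed the 10 of smallest adjusted p from INT1: they start at 54.37, 54.39, 54.42, 54.46, 54.52, 54.59 and 54.6 Mb, with folds from 8.39 to 15.95 in limma.

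From INT2 the remaining called windows were 54.46 to 54.47 Mb, 54.49 to 54.5 Mb and 54.58 to 54.59 Mb. They were 23.0, 46.1 and 14.7 times higher in DN in limma. The window from 54.49 Mb held 0.346% and 0.709% in DN and 0.0153% and 0.00738% in B. The 4 windows called from INT2 and the 1 called from TEA were all among the 33 called from INT1, which were read in the same samples.

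**Figure D5:**
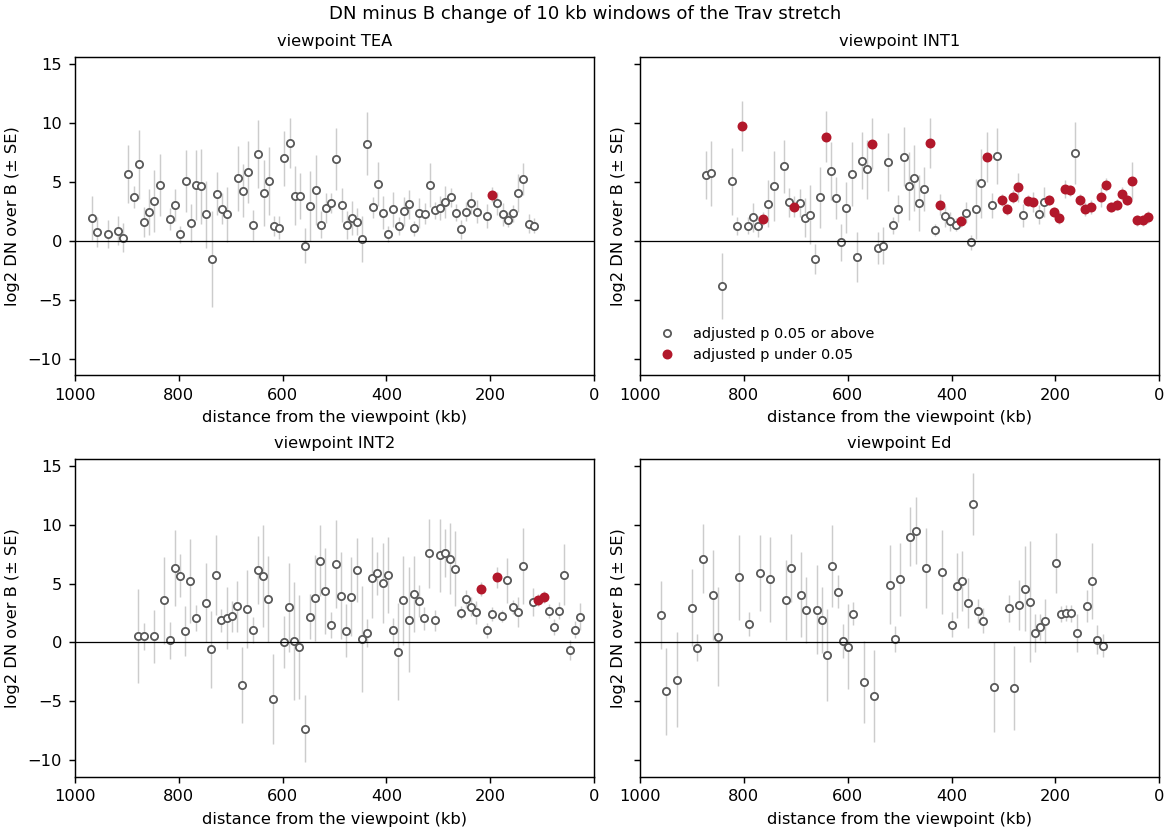
Log2 change of DN over B with its standard error (y axis) for each tested 10 kb window of the stretch against distance from the viewpoint in kb (x axis); filled points passed an adjusted p of 0.05 in limma. From INT1 33 windows are filled, most of them in the nearest 300 kb of the stretch, against 4 from INT2, 1 from TEA and 0 from Ed.

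The change of a window was also compared between viewpoints, in 1 limma model over the 16 libraries with the sample as a random block. Over 82 windows of the stretch, 0 passed for INT1 against INT2 (0% of all windows in each direction), for TEA against Ed (0.549% higher and 1.1% lower over all windows) or for the mean of INT1 and INT2 against that of TEA and Ed (0% and 0.549%). At an unadjusted p under 0.05 there were 1, 6 and 6. For the window from 54.57 Mb the change was larger from INT1 than from INT2 by 1.14 ± 0.85 (log2, SE; limma, adjusted p = 0.993). The larger number of windows called from INT1 is therefore not shown to be a difference between viewpoints.

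Single fragments varied more than windows. At the level of fragments, limma called 0 of 248 tested members from INT1, 0 of 223 from TEA, 0 of 226 from INT2 and 0 of 107 from Ed (0% of all fragments each), with 102, 69, 61 and 15 at an unadjusted p under 0.05. With edgeR the counts were 0, 0 and 2 for INT1, INT2 and Ed. Without DN replicate 1 the calls were 69, 51, 73 and 34 for INT1, TEA, INT2 and Ed, and without DN replicate 2 they were 65, 43, 51 and 19. Both DN libraries exceeded both B libraries for 170 members from INT1 (54.9% of all fragments), 146 from TEA (54.4%), 113 from INT2 (43.1%) and 44 from Ed (34.1%).

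The fragments that led the stretch differed between viewpoints and samples. In DN, chr14:54585725-54589201 was among the 5 highest from TEA, INT2 and Ed. From TEA it held 0.507% and 0.207% in DN, with 0 in B replicate 1 and 0.127% in B replicate 2. From Ed it held 0.0207% and 0.644% in DN against 0.1001% and 0.0233% in B, so the 2 DN libraries lay on either side of the B libraries. The fragment chr14:54506171-54512145 led from INT2 in both cell types, with 0.401% and 0.880% in DN and 0.202% and 0.143% in B. The longest of the leading fragments, chr14:54624517-54641354 (16838 bp), led from INT1 in B with 0.269% and 0.153%, and held 0.758% and 0.608% in DN.

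Ed gave the most uneven fragments. Its highest member in DN, chr14:54407375-54411753, held 0.0656% in DN replicate 1 and 1.83% in DN replicate 2, with no read in either B library. The fragment adjoins the longest stretch with no listed fragment. Its window was higher in DN by at least 1254-fold against a floor of 3 reads per B library, a bound that rests on DN replicate 2, and it did not pass (limma, adjusted p = 0.284). From INT1 the DN libraries held 2114 and 1770 reads on the same fragment and the B libraries 18 and 176. The 5 highest members held 26.5% and 41.8% of the reads of the stretch from Ed in DN and 34.0% and 45.4% in B.

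Reads were spread over more fragments in DN. From INT1, 97 and 113 members were needed to reach 90% of the reads of the stretch in DN and 67 and 76 in B. From TEA the numbers were 108 and 102 against 57 and 58, from INT2 92 and 98 against 53 and 60, and from Ed 49 and 43 against 30 and 26. The cell types overlapped from none of the viewpoints (exact permutation p = 0.333, the smallest possible), but these numbers were not brought to equal depth, and the reads on the stretch ranged from 5957 to 524172 per library.

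Peaks were then taken as windows at least 1 log2 unit above the decay line of their own library in both samples of a cell type. In single libraries, 30 to 48 of the 84 windows lay that far above the line, so the cut is not strict. In DN there were 26 of 84 from INT1, 30 from INT2, 21 from TEA and 34 from Ed, and in B 30, 25, 24 and 23. Of these, 16, 16, 13 and 18 in the same order were peaks in both cell types. A window was a peak from all 4 viewpoints at 9 places in DN and at 2 in B. The viewpoints share samples, so these numbers do not show that the peaks are particular to DN. The 9 in DN start at 53.88, 53.9, 53.95, 54.37, 54.38, 54.42, 54.49, 54.52 and 54.57 Mb, and the 2 in B at 54.42 and 54.52 Mb, which are also among the 9.

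The window from 54.42 Mb was thus a peak in both cell types. It stood above the decay line by 2.12 and 2.08 (log2) in DN and 2.003 and 2.09 in B from INT1. From TEA it stood 2.10 and 2.86 above in DN and 4.94 and 3.59 in B, where its level was 0.392% and 0.917% in DN and 0.384% and 0.217% in B. Its level from INT1 was still 10.5 times higher in DN (limma, adjusted p = 0.00310), while from TEA the difference of 2.07-fold did not pass (limma, adjusted p = 0.341). The window from 54.57 Mb stood 2.52 and 2.31 above the line from INT1 in DN and 0.70 and 1.099 in B.

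The far peak from 53.95 Mb stood above the line by 2.16 and 2.54 from INT1, 1.82 and 3.34 from INT2, 2.71 and 1.17 from TEA and 6.33 and 5.09 from Ed in DN. In B its samples lay on both sides of the line from INT1, INT2 and Ed, but from TEA they stood 3.27 and 3.01 above it, higher than the DN samples, so that from TEA it was a peak in B too. As a description over the 84 windows, which share fragment composition, the deviations from the decay line correlated between DN replicates with r of 0.57 to 0.82 and between B replicates with r of 0.08 to 0.45. Between viewpoints, r was 0.46 to 0.76 in DN and 0.15 to 0.59 in B, where the viewpoints share samples.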

How the data were processed

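The deposited files list HindIII fragments with reads as RPM, reads scaled by the authors to the mapped reads of a library, with fragments padded by 40 bp, per the file headers. The submitters' processing notes name CASAVA, Bowtie and build mm9, with no version given in the sources used here. The 8 deposited averaged files were not used. A fragment absent from a file was set to 0. Every library was divided by its chromosome 14 total, leaving out the viewpoint fragment with its 2 neighbours. The members and lists were chosen with earlier results of these data known.

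RPM values were whole multiples of 1 read (within 0.01 read) for 99.9988% or more of the values of a library. Recovered reads were tested with edgeR 4.0.16 for INT1, INT2 and Ed only, since for TEA the unit of DN replicate 2 could not be told from rounding. Read numbers given for that library, and its thinning, rest on this unit and are uncertain, while its percentages do not depend on it. Windows of 10 kb and fragments within 1 Mb, without 10 kb around the viewpoint and with a mean of at least 10 reads, were fitted in limma 3.58.1 (R 4.3.3) as log2 of the scaled sum with a pseudocount of 1 and a variance trend, 2 DN against 2 B, two-sided, with a threshold of 0.05. Fold changes on this scale rest on means of log2 values, so a library with few or no reads weighs heavily. From Ed, the window from 53.8 to 53.81 Mb had means of 0.0244% in DN and 0.0253% in B, but a fold of 4.99. With the larger pseudocount, the median log2 change of the stretch's windows was 2.08 from INT1, 1.72 from INT2, 1.98 from TEA and 1.79 from Ed. With a pseudocount of 1 these were 3.21, 2.97, 2.67 and 2.78. The limma step was tested on simulated data. Single values were compared with exact permutation tests.

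Named windows are those called (at most 10 per viewpoint, smallest adjusted p first), the 5 highest by mean level, and peaks from all 4 viewpoints. Named fragments are the 5 highest per viewpoint and cell type. Others named are stated as singled out. Alternatives were other library sizes, TMM factors, capped or once-counted fragments, 20 and 50 kb windows, a larger pseudocount, no filter, no trend, a replicate block, edgeR, and each sample left out. Python 3.11.15, pandas 2.3.3 and matplotlib 3.10.9 made tables and figures.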

Additional observations from a re-analysis of the deposited data

How the results depend on the processing

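The share of reads on the stretch and the share of captured fragments stayed higher in DN from all 4 viewpoints under each alternative run, although within 1 Mb the TEA samples overlapped. Counts of windows and fragments called moved. Of 81, 82 and 81 tested 10 kb windows for TEA, INT1 and INT2, 42, 57 and 13 were higher in DN with library size over all chromosomes. They numbered 0, 18 and 0 within 1 Mb, 0, 20 and 0 as excess over other chromosomes, and 0, 20 and 0 with TMM factors. With the larger pseudocount they were 7, 51 and 13, and without the variance trend 0, 4 and 0. In 50 kb windows 9, 16 and 8 were called, of only 17 tested from each viewpoint, a larger share than in 10 kb windows. With each fragment counted once, the 10 kb windows called were 32, 11, 36 and 14 for TEA, INT1, INT2 and Ed. Capped fragments gave 2 for TEA and 10 for INT2, and 20 kb windows 0 and 7, of 43 tested each. Shares over all windows are not given for these alternatives. Leaving out 1 sample gave 0 for TEA, 8 to 39 for INT1, 0 for INT2 (with 2 windows lower without B replicate 2) and 0 to 6 for Ed. A lone sample was assumed to vary like the other group.

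Counts of fragments higher in DN were 20, 40 and 25 for TEA, INT1 and INT2 without the trend, 48 for INT1 with the larger pseudocount, 14 for INT2 over all chromosomes and 2 for Ed in edgeR. Leaving out 1 sample gave 0 to 51 for TEA, 0 to 69 for INT1, 0 to 73 for INT2 and 0 to 34 for Ed. The interaction of INT1 and INT2 gave 1 window without the trend. The slope difference, DN minus B, turned to -0.233 for TEA, -0.0911 for INT1 and 0.232 for Ed in 20 kb windows and to -0.0908 for INT1 beyond 50 kb. Leaving out 1 sample gave -0.13 to 0.28 for INT1 and -0.73 to 0.37 for Ed. The cause of these moves was not tested.

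Same-numbered samples deviated from their group means with a correlation between -0.09 and 0.10 over windows, so the numbers give no pairing. With a replicate block, windows called were 16 for TEA, 39 for INT1, 13 for INT2 and 0 for Ed, and fragments called 41 for INT1 and 0 for the others. A library size without 10 kb around the viewpoint, chosen after seeing the data because a fragment beside Ed held many reads, gave 1, 31, 4 and 0 windows for TEA, INT1, INT2 and Ed. The shallowest libraries, Ed and INT2 of DN replicate 1, limit what can be seen of single fragments.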
